A study of Mus musculus with 6 samples.

Results

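The type 2 cytokine response genes described here are 10 named genes, matched by gene symbol in a table of 33308 genes: the alarmins Il33 and Tslp, the cytokine Il13, the receptor chains Il1rl1, Crlf2, Il4ra, Il13ra1 and Il13ra2, and the response genes Retnla and Postn. All 10 were found. They were measured by RNA-seq in 6 samples of mouse skin, 3 of them untreated controls and 3 taken after 42 days of osimertinib. This drug blocks the kinase of the epidermal growth factor receptor, and the series was made to study the skin problems that it causes. The sources used here do not give the strain, genotype, sex, age, dose or skin site. They also do not say that each sample is a different animal, so the p-values describe the spread of these samples, part of which may be technical.

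In type 2 immunity, epithelial and stromal cells release the alarmins IL-33 and TSLP, which act on innate lymphoid cells, T helper cells, mast cells and dendritic cells. These cells in turn make IL-4 and IL-13. Both cytokines bind receptors that contain the IL-4 receptor alpha chain and act through JAK kinases and the transcription factor STAT6, which switches on genes such as Retnla in macrophages and Postn in fibroblasts. In skin this pathway is best known from atopic dermatitis, itch and helminth defence.

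Library totals ran from 54112624 to 60719064 counts. Keratinocyte markers (8 genes) took between 1.15% and 4.87% of each library. The libraries also held skeletal muscle in uneven amounts: 12 muscle genes held 4.14% of control 1, 11.9% of control 2 and 0.0276% of control 3, and between 3.94% and 6.56% of the treated libraries. Control 3, with the least muscle, had the highest keratinocyte share. The 8 hair shaft and matrix genes matched had a summed level of 20.3 to 157 CPM (read counts scaled to library size) in controls and of 561 to 3351 CPM after treatment.

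Retnla was lower in all 3 treated samples than in any control, and Il33 and Il13ra1 were lower on average. Il1rl1, Tslp, Il4ra, Crlf2 and Postn had log2 fold changes smaller than their standard errors, and Il13ra2 was higher on average, by less than its standard error. Il13 was close to absent. In whole skin, fewer cells of a type and less RNA per cell cannot be told apart. Of the 9 genes with a mean count of at least 10, which were tested, 7 had a log2 fold change (osimertinib over control) below 0, against 54.2% of all 19911 genes tested. Their median was −0.36 and that of all genes tested −0.049. Without control 3, 4 of 9 were below 0 and the median was 0.043. Leaving out osimertinib 2 gave 5 of 9 and a median of −0.007. With the level of the muscle genes as a covariate, 4 of 9 were below 0. Control 3 had far less muscle than any other library, so this fit and that without control 3 are not independent checks.

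None of the 9 tested genes passed the quasi-likelihood test of edgeR after Benjamini-Hochberg adjustment over all genes tested (threshold 0.05), and of all genes 0% passed in either direction. At an unadjusted p below 0.05, 1 of the 9 tested genes, Retnla, passed, against 13.3% of all genes. DESeq2, run as an alternative, called 1 of the 9, again Retnla, as lower and 0 as higher, against 2.31% of all genes called lower and 3.09% called higher. Of the 9, 1 had all treated samples below all controls and 0 the reverse, against 9.43% and 11% of all genes. A count of 1 among 9 is not a result about the set as a whole.

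**Figure D1:**
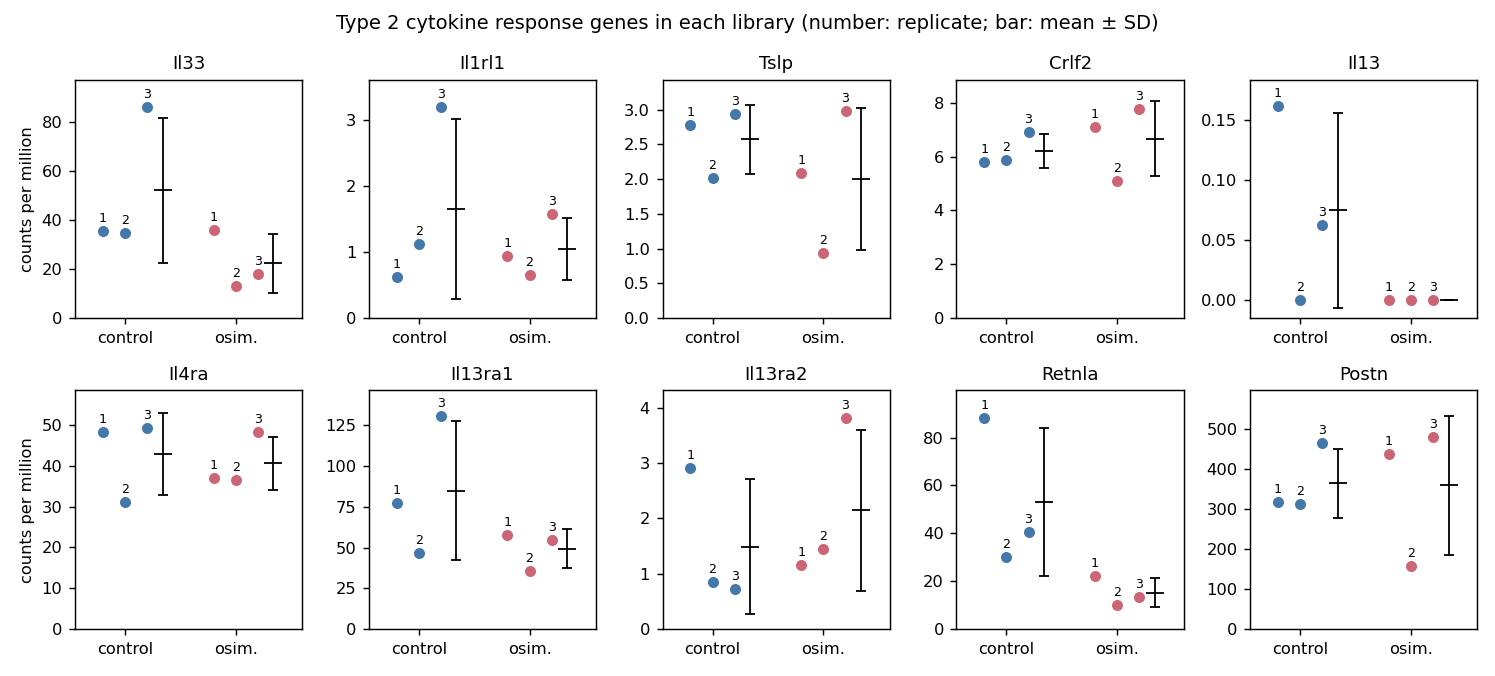
Level of each of the 10 genes in CPM (vertical axis, each panel on its own scale) in 3 control and 3 osimertinib (osim.) libraries. Points are libraries, marked with their replicate number, and bars give mean ± SD. Retnla alone has its 3 treated libraries, at 10.15 to 22.0 CPM, below its 3 controls, at 30.3 to 88.4 CPM.

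The authors' FPKM values are scaled by a gene length, so levels can be compared roughly between genes. The length taken for each gene was not checked, and the order of genes depends on it. In controls the mean FPKM ran from 76.6 for Retnla through 36.0 for Postn, 20.25 for Il13ra1, 15.9 for Il33, 6.17 for Il4ra, 3.51 for Crlf2 and 1.66 for Tslp to 0.555 for Il13ra2, 0.211 for Il1rl1 and 0.0510 for Il13. The order of the treated means was the same, except that Retnla (22.1 FPKM) and Postn (36.0 FPKM) were in reverse order. By FPKM, Retnla was above Postn in 3 of 3 control libraries and in 0 of 3 treated libraries. By CPM, which takes no account of gene length, Postn was the higher in every library. Il33 was above Il4ra in 3 of 3 controls and in 1 of 3 treated libraries. Il13ra1 was above Il33 within each of the 6 libraries, although their ranges over libraries overlapped in both groups. Between Il13ra2 and Il1rl1, at the low end, the order differed among the controls, 2 of 3 having Il13ra2 higher.

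Retnla encodes resistin-like alpha, a secreted protein of alternatively activated macrophages and of adipose tissue, and it is a widely used readout of IL-4 and IL-13 signalling. Il33 encodes a nuclear cytokine of barrier epithelium and stroma that is set free when cells are damaged. They had the 2 lowest log2 fold changes of the tested members, and the stretches just upstream of their annotated starts are shown because they are also the only members whose promoter window holds a STAT6-type motif, TTC and GAA with 4 bases of any kind between them. The windows are RefSeq promoters on GRCm38.p6, from 250 bases before to 50 bases after the start. Below, only bases upstream of the earliest annotated transcript start are printed, on the plus strand, with the motif in capitals.
Retnla, chr16:48842359-48842550: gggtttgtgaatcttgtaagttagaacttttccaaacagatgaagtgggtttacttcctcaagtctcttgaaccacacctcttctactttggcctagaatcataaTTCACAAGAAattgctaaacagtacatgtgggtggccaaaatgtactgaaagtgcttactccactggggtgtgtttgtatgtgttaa
Il33, chr19:29924863-29925112: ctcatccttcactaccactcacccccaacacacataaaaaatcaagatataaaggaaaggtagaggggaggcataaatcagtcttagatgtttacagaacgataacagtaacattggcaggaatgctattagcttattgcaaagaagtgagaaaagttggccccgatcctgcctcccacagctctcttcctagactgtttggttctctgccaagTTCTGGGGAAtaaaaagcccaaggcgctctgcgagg

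The match in Retnla ended 78 bases before the gene's earliest GENCODE start and 136 bases before the RefSeq start that sets its window. For Il33 these distances were 28 and 27 bases. The pattern reads the same on both strands, so a single scan covered both. It was found in 2 of the 12 windows of the 9 members in the table (all but Tslp), and in 6.95% of all 32851 windows. By gene, 2 of the 9 members held it, against 8.01% of all 27025 genes, and a count of 2 is not a result about the set. The same letters spaced by 3 bases, a form general to STAT proteins, was in 0 of the 12 windows and in 8.30% of all windows. A match describes the letters only and does not show that a factor binds there. Whether the motif has a part in the fold changes of Retnla and Il33 was not tested.

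Il33 (chromosome 19, 29925114 to 29960718) was at 35.7, 34.5 and 86.05 CPM in controls 1 to 3. In osimertinib samples 1 to 3 it was at 35.8, 13.1 and 17.96 CPM. Control 3 was far above the other controls, and osimertinib 1 was level with controls 1 and 2, so the groups overlapped. Its log2 fold change was −1.22 ± 0.51 (SE, n = 3 per group), that is 2.34-fold lower, with an adjusted p of 0.38 in edgeR. Without control 3 the log2 fold change was −0.65, and with the muscle covariate −0.74. Of the keratinocyte marker list, 8 of 8 tested genes had a log2 fold change below 0, against 54.2% of all genes. In edgeR 0 passed, and DESeq2 called 1 (Krt15) lower. The count below 0 was not repeated without control 3. The summed level was 24950, 14090 and 43480 CPM in controls 1 to 3 and 11530 to 22100 CPM in treated skin. The part of the keratinocyte level in the Il33 difference was tested only as the ratio given further on.

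Il1rl1 encodes ST2, the receptor for IL-33, in a membrane-bound and a soluble decoy form. The deposited row gives chromosome 1, 40429570 to 40448148, and names transcripts of both kinds, so the forms cannot be told apart. In GENCODE M21 the gene runs on to 40465415, past the end of the deposited row, and how much of the longer transcripts the count covers was not tested. It was a low transcript, at 0.6275, 1.12 and 3.20 CPM in controls 1 to 3 and at 0.941, 0.655 and 1.57 CPM in treated samples 1 to 3, from 35 to 205 reads per library. Control 3 again stood highest, and the other libraries were intermixed. Il1rl1 had a log2 fold change of −0.65 ± 0.69 (SE), with an adjusted p of 0.76 in edgeR, and its sign turned without control 3 (0.26) and with the muscle covariate (0.058).

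Tslp, the epithelial alarmin that acts on dendritic cells and innate lymphoid cells, was at 2.78, 2.01 and 2.94 CPM in the controls. In treated samples it was at 2.09, 0.936 and 2.985 CPM. Only osimertinib 2 lay below the control range. Its log2 fold change of −0.36 ± 0.48 (SE) had an adjusted p of 0.824 in edgeR, and was −0.0072 without osimertinib 2 and −0.74 without osimertinib 3. Its receptor chain Crlf2 (chromosome 5, 109554709 to 109558993) was at 5.81, 5.88 and 6.92 CPM in controls, against 7.12, 5.10 and 7.77 CPM in treated skin. The ranges overlapped, with treated values on both sides of the control range. The log2 fold change was 0.10 ± 0.26 (SE, adjusted p = 0.931 in edgeR).

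Il13 (chromosome 11, 53631324 to 53634702), the main effector cytokine of type 2 inflammation in skin, had 9, 0 and 4 counts in controls 1 to 3 and 0 counts in each treated sample. A count of 0 allows up to 3 counts, or 0.0468 to 0.0513 CPM in the treated libraries, for counting error only. The levels in controls 1 and 3 were 0.161 and 0.0625 CPM, so that of control 3 lay near this limit. With a mean count under 10 the gene was not among those tested. In a fit with no filter on low values, 13 counts against 0 gave an unadjusted p of 0.0642 and an adjusted p of 0.559 in edgeR.

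The shared receptor chain of IL-4 and IL-13, Il4ra (chromosome 7, 125552120 to 125579474), was at 48.2, 31.2 and 49.3 CPM in controls. After treatment it was at 37.0, 36.55 and 48.2 CPM. Every treated value lay within the control range. A log2 fold change of −0.080 ± 0.24 (SE, adjusted p = 0.944 in edgeR) took either sign when single libraries were left out, between −0.23 and 0.043. The annotation places a gene on the opposite strand, Gm44876, inside Il4ra. The sources used here do not say how strand was used in counting.

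Il13ra1 (chromosome X, 36112110 to 36171259), the chain that joins Il4ra in the receptor that binds both cytokines, was at 77.2, 46.7 and 131 CPM in controls. In treated skin it was at 57.9, 35.5 and 54.4 CPM. Control 3 was highest, and osimertinib samples 1 and 3 lay between controls 1 and 2. This gave a log2 fold change of −0.79 ± 0.40 (SE), 1.72-fold lower, with an adjusted p of 0.454 in edgeR. It was −0.32 without control 3 and −1.06 without control 2.

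Il13ra2 (chromosome X, 147383476 to 147429192) binds IL-13 tightly and is known mainly as a decoy. It was at 2.90, 0.843 and 0.719 CPM in controls, against 1.16, 1.45 and 3.82 CPM in treated samples. A single library in each group, control 1 and osimertinib 3, stood above the rest. Its log2 fold change was 0.53 ± 0.73 (SE, adjusted p = 0.836 in edgeR), ranging from −0.15 without osimertinib 3 to 1.46 without control 1.

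Retnla (chromosome 16, 48842551 to 48844461) was at 88.4, 30.3 and 40.7 CPM in controls 1, 2 and 3. It was at 22.0, 10.15 and 13.5 CPM in osimertinib samples 1, 2 and 3. Each treated sample was below each control, and control 1 stood above the other controls. The log2 fold change of Retnla was −1.81 ± 0.48 (SE, n = 3 per group), 3.49-fold lower. The adjusted p was 0.252 in edgeR and 0.0106 in DESeq2. Over the alternatives the log2 fold change stayed between −2.17 and −1.21, the value nearest 0 being that without control 1, and the adjusted p ran from 0.0106 to 0.638. The difference was as large without control 3 (−1.95) and with the muscle covariate (−1.89), which are not independent checks.

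Cell types that make Retnla were followed by their markers. The summed level of 9 macrophage markers was 340 to 360 CPM in controls and 217 to 810 CPM in treated skin. Of the 9, 7 had a log2 fold change below 0, against 54.2% of all genes, and 0 passed in edgeR or DESeq2. Their median was −0.054, against −0.049 for all genes tested. The 2 above 0 were Cd68 (0.47 ± 0.42) and Lyz2 (1.31 ± 0.54, log2 fold change, SE). Among those below 0, Cd163, a scavenger receptor, was named here after its values were seen. It was at 27.1, 24.7 and 19.8 CPM in controls and at 12.2, 5.86 and 14.5 CPM in treated samples, without overlap (log2 fold change −1.14 ± 0.35, SE, adjusted p = 0.286 in edgeR). The sum of 8 adipocyte markers was 567 to 8184 CPM in controls and 2086 to 3656 CPM in treated skin. Of these, 8 of 8 were below 0, against 54.2% of all genes, and 0 passed in edgeR or DESeq2. The part of adipocyte content in the Retnla difference was not tested. Of Retnla's relatives, Retn, the adipocyte hormone resistin, had a log2 fold change of −0.82 ± 0.79 (SE), or −0.22 without control 2 and −1.54 without osimertinib 3. Retnlg, known from neutrophils, was at −0.088 ± 1.18 (SE). Neither passed, and reads of near-identical stretches could be divided among this family.

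Postn (chromosome 3, 54361109 to 54391037) encodes periostin, a matrix protein of fibroblasts that IL-13 and TGF-beta induce. It was at 317, 312.8 and 464 CPM in controls, against 438, 158.5 and 480.5 CPM in treated skin. Osimertinib 2 stood below all other libraries, and the other treated samples lay within or above the control range. Postn had a log2 fold change of −0.023 ± 0.44 (SE, adjusted p = 0.991 in edgeR), which became 0.35 without osimertinib 2. The 8 fibroblast markers summed to 3028 to 4226 CPM in controls and to 1388 to 3332 CPM in treated skin, lowest in osimertinib 2, where Postn was lowest too. The part of the fibroblast level in this value was tested only as a ratio.

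**Figure D2:**
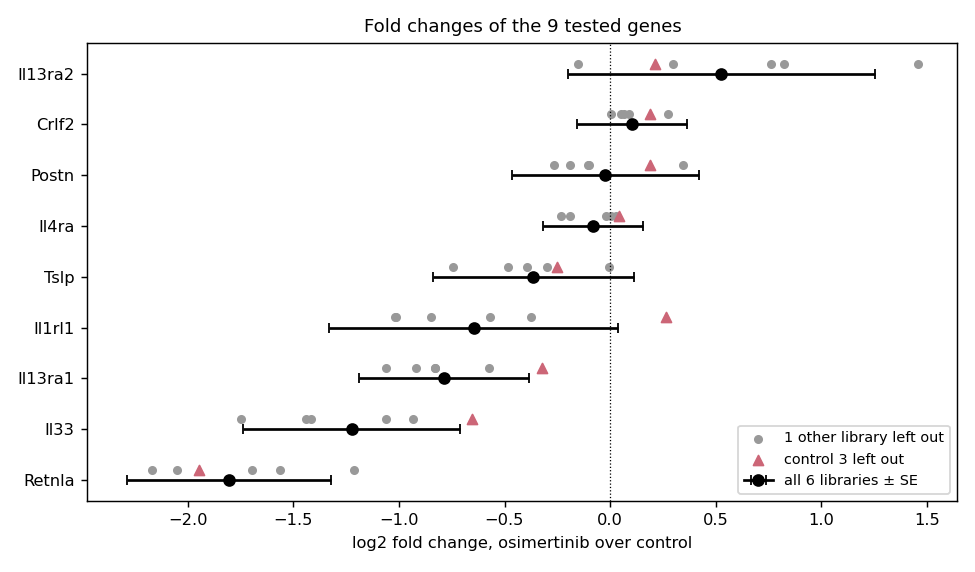
Log2 fold change, osimertinib over control (horizontal axis), of the 9 tested genes with all 6 libraries (black, ± SE) and with 1 library left out (grey, or triangle for control 3). Without control 3, Il33, Il13ra1 and Il1rl1 are at −0.65, −0.32 and 0.26, and Retnla is at −1.95.

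Ratios taken within a library were compared between groups for 5 pairs, with exact two-sided permutation tests for which 0.1 is the smallest possible p. Retnla over the summed macrophage markers was 0.246, 0.0873 and 0.12 in controls 1 to 3, and 0.0534, 0.0469 and 0.0166 in treated samples 1 to 3. The groups did not overlap. On the log2 scale the ratio was −2.87 ± 0.77 in controls and −4.85 ± 0.92 in treated skin (SD, n = 3 each), lower by 1.98 (difference −1.98, exact p = 0.1, adjusted p = 0.375 over 5 ratios). Without Lyz2, the most abundant gene of the list and one that neutrophils share, the difference was −1.45.

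The decoy chain Il13ra2 over the signalling chain Il13ra1, in FPKM, averaged −5.32 ± 1.41 on the log2 scale in controls and −4.00 ± 0.90 in treated skin (SD, n = 3 each; exact p = 0.2, adjusted p = 0.375). The difference of 1.33 was 0.576 without control 3, 0.897 without osimertinib 3 and 1.97 without control 1. The groups overlapped, at 0.061, 0.029 and 0.00879 against 0.0327, 0.0661 and 0.114 on the linear scale. Il33 over the keratinocyte markers differed by −0.44 on the log2 scale (exact p = 0.3, adjusted p = 0.375), with overlapping groups. This was −0.24 without the most abundant keratinocyte gene, −0.26 without control 2 and −0.28 without osimertinib 2. Postn over the fibroblast markers differed by 0.48 (exact p = 0.3, adjusted p = 0.375), or by 0.26 without control 1, 0.32 without osimertinib 1 and 0.77 without control 3. Il1rl1 over the mast cell markers differed by −0.37 (exact p = 0.9, adjusted p = 0.9) and by 0.34 without control 3, and the summed mast cell markers were 19.5 to 22.9 CPM in controls and 12.7 to 28.4 CPM in treated skin.

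**Figure D3:**
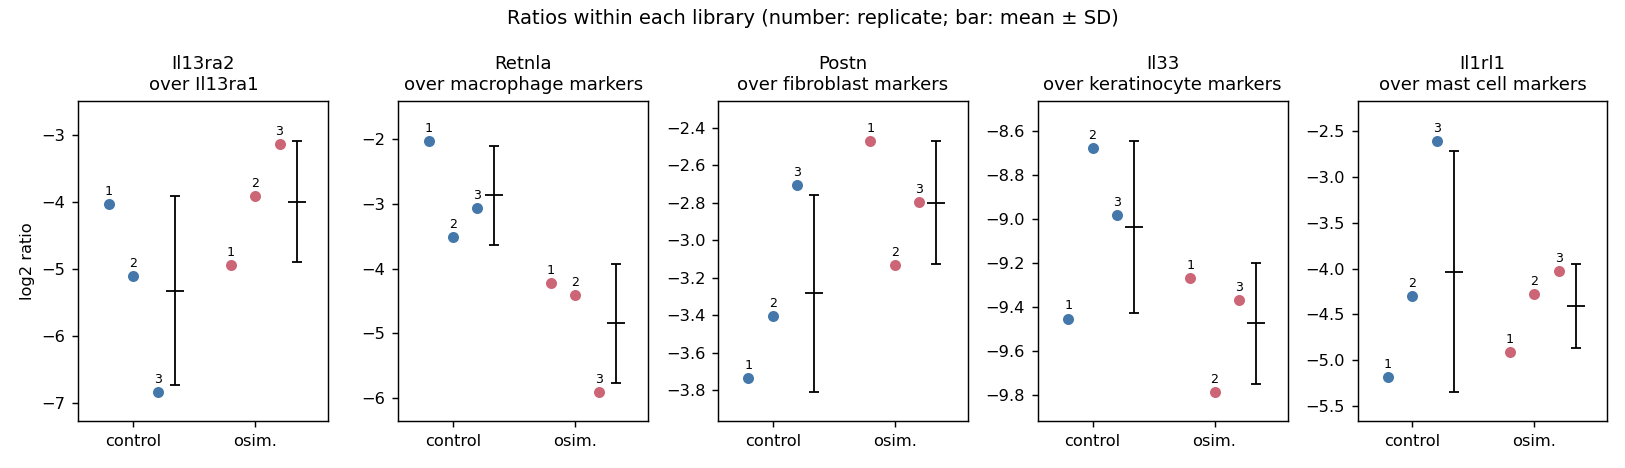
Log2 ratio within each library (vertical axis, each panel on its own scale) of a gene to a partner gene or to the summed markers of a cell type, for 3 control and 3 osimertinib (osim.) libraries. Points carry the replicate number and bars give mean ± SD. The ratio of Retnla to macrophage markers is the only panel without overlap, at −2.02 to −3.52 in controls and −4.23 to −5.91 in treated skin.

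Other genes of the pathway were taken from 7 further lists, in which edgeR called 0 genes after adjustment. Their counts are read against all genes tested, of which 54.2% were below 0, 9.43% had treated samples wholly below controls and 11% wholly above, and DESeq2 called 2.31% lower and 3.09% higher. The list counts were not repeated without control 3, which changed the count for the members. Of 6 other type 2 cytokines 5 were in the table, and only Il4 and Areg had enough counts to test. Il4 was at 0.109 to 0.323 CPM in controls and 0.161 to 0.376 CPM in treated skin, and Areg, an EGFR ligand made by innate lymphoid cells and keratinocytes, was at 3.91 to 18.1 CPM in controls and 5.40 to 25.1 CPM after treatment (log2 fold change 0.21 ± 0.71, SE). Il5 had at most 0.0936 CPM and Il9 was at 0 in all 6 libraries.

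Among 8 tested partner receptor chains, 5 had a log2 fold change below 0 (median −0.40). In 1 of the 8 the groups did not overlap, and DESeq2 called the same gene lower. Both the count below 0 and that without overlap are near the shares of all genes. That gene was Il31ra, the receptor chain for the itch cytokine IL-31. It was at 27.2, 10.2 and 16.1 CPM in controls and at 0.291, 0.873 and 0.995 CPM after treatment (log2 fold change −4.62 ± 0.62, SE, adjusted p = 0.12 in edgeR and 2.92e-13 in DESeq2). Il1rap, which pairs with ST2 to receive IL-33, was at 29.1, 13.3 and 33.3 CPM against 17.6, 10.3 and 11.6 CPM, a log2 fold change of −0.94 ± 0.39 (SE, adjusted p = 0.378 in edgeR). Osmr and the IL-25 receptor chain Il17rb had log2 fold changes of −0.49 ± 0.29 and −0.69 ± 0.52 (SE), which were −0.22 and −0.10 without control 3.

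Of 18 kinases, STAT factors, adaptors and inhibitors, 16 had a log2 fold change below 0 (median −0.35), against 54.2% of all genes, and 4 had treated samples wholly below controls, against 9.43%. DESeq2 called 1 of them, Irs2. Irs2, an adaptor that IL-4 receptors use, had the smallest p. It was at 45.5, 46.4 and 45.3 CPM in controls and 25.3, 31.8 and 27.9 CPM after treatment (log2 fold change −0.69 ± 0.16, SE, adjusted p = 0.199 in edgeR and 0.0148 in DESeq2). Jak1, the kinase bound to Il4ra, was at −0.64 ± 0.26 and Stat5a at −0.55 ± 0.27 (log2 fold change, SE), values that were −0.42 and −0.31 without osimertinib 2. Stat6 itself was at 125, 83.0 and 130 CPM against 105.5, 80.4 and 76.0 CPM, with overlapping groups. The phosphatase Ptpn6 was at −0.80 ± 0.40 (log2 fold change, SE), and at −0.39 without control 3.

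Of 12 tested genes of the myeloid type 2 response, 9 had a log2 fold change below 0 (median −0.44), against 54.2% of all genes, and 4 had treated samples wholly below controls, against 9.43%. Arg1, the arginase of alternatively activated macrophages that keratinocytes also make, was at 70.4, 37.8 and 71.7 CPM in controls, against 4.72, 3.91 and 1.54 CPM in treated skin. Its log2 fold change was −4.14 ± 0.51 (SE), with an adjusted p of 0.109 in edgeR and 3.83e-14 in DESeq2. The lectin Cd209a, of dermal dendritic cells, was at −1.09 ± 0.27 and Cd209d at −1.05 ± 0.36 (log2 fold change, SE). Irf4, a transcription factor of the IL-4 response, was at −1.04 ± 0.31 (SE, adjusted p = 0.279 in edgeR and 0.0433 in DESeq2). DESeq2 called 3 of the 12 lower, Arg1, Cd209a and Irf4, against 2.31% of all genes. The macrophage marker Mrc1, which is on this list as well, was at 16.75 to 26.05 CPM in controls and 8.98 to 30.8 CPM in treated skin. The 3 tested genes above 0 were Chil3 (0.67 ± 0.68), Slc7a2 (0.38 ± 0.58) and Fn1 (0.23 ± 0.36, log2 fold change, SE). Pdcd1lg2 was too low to be tested. It had 0, 0 and 7 counts in controls and 15, 11 and 16 counts in treated samples.

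The chemokines had members far apart in both directions. Of 8 tested, 5 had a log2 fold change above 0 (median 0.22), and DESeq2 called 0. The eotaxin Ccl24 was at 8.79, 1.10 and 2.14 CPM in controls and at 0.924, 0.702 and 0.899 CPM after treatment (log2 fold change −2.25 ± 0.79, SE, adjusted p = 0.324 in edgeR), and −0.93 without control 1. Ccl17, a T cell attractant of dendritic cells, was at 0.645, 0.0649 and 0 CPM in controls and 0.936 to 1.11 CPM in treated skin. Its fitted log2 fold change of 2.10 ± 1.28 (SE, adjusted p = 0.539 in edgeR) was 1.53 without control 3 and 5.01 without control 1. Ccr4, the receptor for Ccl17 on skin-homing T cells, was at −1.61 ± 0.76 (log2 fold change, SE), and between −2.43 and −1.14 when single libraries were left out. Ccl7 was at 1.45 ± 0.70 (log2 fold change, SE), and at 0.47 without osimertinib 3.

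The 12 genes listed with periostin are matrix proteins, enzymes that act on the matrix and TGF-beta ligands. Of these, 6 had a log2 fold change above 0 and 6 below (median 0.10). Treated samples were wholly above controls in 2 and wholly below in 2, and DESeq2 called 1 in each direction. Tgfb1 was at 17.8, 17.1 and 25.4 CPM in controls and 35.0, 40.1 and 36.4 CPM after treatment (log2 fold change 0.89 ± 0.21, SE, adjusted p = 0.206 in edgeR and 0.00757 in DESeq2). Tgfbi, a relative of periostin with the same repeat domains, was at 455, 283 and 709 CPM against 234, 120 and 197 CPM (−1.39 ± 0.42, SE, adjusted p = 0.281 in edgeR and 0.0248 in DESeq2). Tenascin C (Tnc), a partner of periostin in the matrix, had all treated samples above all controls, with a log2 fold change of 1.38 ± 0.49 (SE, adjusted p = 0.326 in edgeR). Col12a1 was at 0.45 ± 0.26 (log2 fold change, SE), or 0.31 without control 2 and 0.73 without control 3. Tgfb1, Tgfbi and Tnc had the smallest p of this list, and they lay on both sides of 0.

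**Figure D4:**
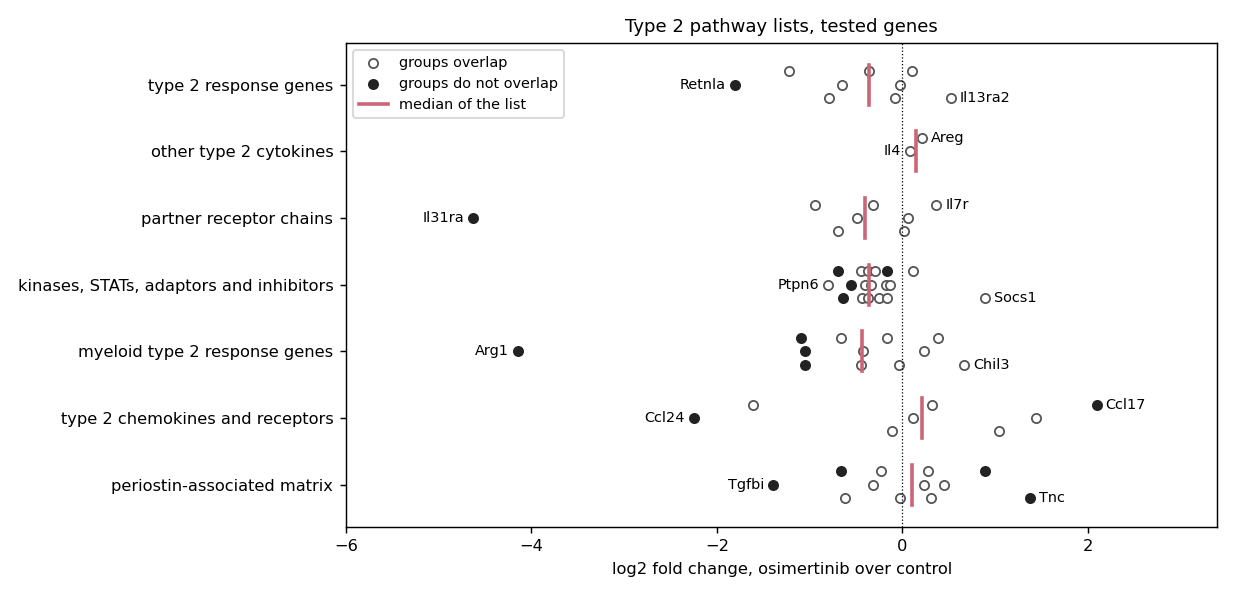
Log2 fold change, osimertinib over control (horizontal axis), of every tested gene in the type 2 response genes and in 6 pathway lists (rows, with the gene at each end named); filled points are genes whose groups do not overlap and the red line is the median of the list. Il31ra at −4.62 and Arg1 at −4.14 lie far below the other genes, and the list medians lie between −0.44 and 0.22.

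Patterns over the 6 libraries were compared by the Pearson correlation of log2 CPM, as a description over 15936 named genes. The genes most like Retnla were Sec62 (r = 0.998), Rab5a (r = 0.993) and Tmx3 (r = 0.992). Their range was much narrower than Retnla's, Sec62 being at 102 to 131 CPM in controls and 83.5 to 96.8 CPM in treated skin. Those most like Il4ra were Batf2 (r = 0.988), Canx (r = 0.984) and Hmgcs1 (r = 0.983). These genes were picked for their r, so it is not a result about them.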

How the data were processed

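RNA-seq of mouse skin was analysed in 3 control and 3 osimertinib samples, grouped and numbered by their titles. The deposited values are raw read counts for each gene and, beside them, FPKM that the authors computed (per the file headers). The tool cutadapt 1.9 and the build GRCm38 are named, per the submitters' processing notes. Per the labels' protocols, polyadenylated RNA was made into dUTP-marked libraries with molecular identifiers. The sources used here do not give the aligner, the counting tool, the annotation or the use of strand and identifiers. A further 6 columns of values match no sample and were not used.

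Counts of 19911 genes with a mean of at least 10 were tested by quasi-likelihood in edgeR 4.0.16 under R 4.3.3 (TMM scaling, no covariate, two-sided, Benjamini-Hochberg, threshold 0.05). With a mean FPKM of at least 1, an alternative, 7 of the 10 genes would be tested. The SE was taken as the size of the log2 fold change over the root of its F statistic. CPM values use TMM factors. Alternatives included DESeq2 1.42.0 and limma 3.58.1 on log2(FPKM + 1) and log2(FPKM + 0.1).

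The genes and lists were chosen with earlier results of these data known. Genes named are the 10, up to 4 of each pathway list with the smallest p, and 3 most like Retnla and Il4ra. Stat6, Mrc1, Chil3, Slc7a2, Fn1, Pdcd1lg2, Cd163, Cd68, Lyz2, Krt15, Il5 and Il9 are named outside this rule. So are the marker genes under the other observations. The tests were tried on simulated data, where DESeq2 recovered more of the changed genes than edgeR and also made more false calls.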

Additional observations from a re-analysis of the deposited data

How the results depend on the processing

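Over 17 alternatives, 26 of the 33 genes in the fit that the naming rule gave kept their direction. In all 6 fits without 1 library, edgeR called 0 genes and 0 of the 9 tested members, while 4 to 8 members were below 0, against 7 with all libraries. Genes called over the whole table were 1075 with DESeq2, 5 and 10 with limma on log2(FPKM + 1) and log2(FPKM + 0.1), and 1 with library totals only. DESeq2 called 1 member, Retnla. With the muscle covariate 4 members were below 0.

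Signs turned for 7 of these genes. Il4ra (range without 1 library −0.23 to 0.043) was at 0.0010 and 0.011 with limma at pseudocounts of 1 and 0.1, and at 0.055 with the muscle covariate. Postn (−0.27 to 0.35) was at 0.0012 with no filter and 0.14 with the covariate. Il1rl1 (−1.02 to 0.26) was at 0.058 with the covariate, and Il4 (−0.32 to 0.37) at −0.20. Retnlg (−0.65 to 0.18) was at 0.0044 and 0.23 with limma, 0.40 with the covariate and 0.47 with the replicate block. Areg ranged from −0.59 to 0.69 and Il13ra2 from −0.15 to 1.46 without 1 library. The ratio of Il1rl1 to mast cell markers ranged from −0.95 to 0.34.

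Same-numbered samples had correlated deviations of 0.111, 0.01 and −0.076, and not every sample correlated best with its own number, so they share only a number. With the replicate block edgeR called 0 genes and 0 members, and 7 members were below 0. Low counts limit Il13, Il1rl1, Il13ra2 and Tslp.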

Other observations

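Marker genes of the cells that make or answer type 2 cytokines were chosen for mention after their values were seen. The eosinophil and basophil list was near its detection limit: its summed level was 0.476 to 1.19 CPM in controls and 0.156 to 0.546 CPM in treated skin, Ear6 was at 0 in all 6 libraries, and 2 of 7 genes could be tested. Prg2, an eosinophil granule protein, was at 0.538, 0.389 and 0.234 CPM in controls and at 0.171, 0.156 and 0.144 CPM after treatment (log2 fold change −1.29 ± 0.55, SE, adjusted p = 0.384 in edgeR). Of 6 tested genes of the T cell and innate lymphoid cell list, 4 had a log2 fold change below 0 and 2 above. Treated samples were wholly below controls in 1, Cd3g, and wholly above in 1, Icos, against 9.43% and 11% of all genes. The summed level of the list, which includes Gata3, was 72.31 to 199.7 CPM in controls and 87.39 to 133.5 CPM in treated skin. The T cell receptor chain Cd3g was at 12.0, 6.05 and 17.4 CPM against 5.61, 2.04 and 4.32 CPM (−1.57 ± 0.52, SE, adjusted p = 0.301 in edgeR). Icos, a costimulator of activated T cells and innate lymphoid cells, was at 0.699, 0.800 and 0.875 CPM in controls and at 3.30, 1.31 and 5.89 CPM after treatment (2.14 ± 0.58, SE, adjusted p = 0.252 in edgeR and 0.0117 in DESeq2). Gata3, which keratinocytes share with type 2 lymphocytes, had overlapping groups at 62.4 to 170 CPM in controls and 74.25 to 127 CPM in treated skin.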
